A study of Mus musculus with 11 samples.

Results

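The genes described here encode the 10 proteins of classical non-homologous end joining that close the DNA breaks made during V(D)J recombination: Prkdc, Xrcc5, Xrcc6, Xrcc4, Lig4, Nhej1, Dclre1c, Poll, Polm and Paxx. They were chosen by their role in this pathway, and all 10 were among the 35896 genes with a transcript in the files. RNA was sequenced from sorted thymocytes of 2 CD4-CD8- stages, DN2 and DN3, of which DN3 is the stage of T cell receptor β rearrangement. WT mice gave 3 DN2 and 3 DN3 libraries and Arpp21-/- mice gave 2 DN2 and 3 DN3 libraries, with the strain labelled C57BL/6J. The Arpp21-/- mice come from 1 line, made in C57BL/6N embryos by the study's methods, with a germline excision of exon 5 of Arpp21, which encodes an RNA-binding protein, so the deletion is present in every cell and not in thymocytes alone. Sexes and ages were matched between genotypes, mice across the study were 6 weeks to 1 year old without an age for each library, and the labels do not say that replicates came from separate mice, so p-values measure the spread between these libraries, which may be technical.

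During V(D)J recombination the RAG1 and RAG2 proteins cut the DNA beside paired gene segments and leave hairpins at the coding ends. The Ku heterodimer, encoded by Xrcc6 (Ku70) and Xrcc5 (Ku80), binds the ends and recruits the kinase DNA-PKcs (Prkdc), which activates the nuclease Artemis (Dclre1c) to open the hairpins. The polymerases λ (Poll) and μ (Polm) fill gaps, and the ligase DNA ligase IV (Lig4) with its partner XRCC4, the scaffold XLF (Nhej1) and the Ku-binding factor PAXX joins the ends. Loss of any core member blocks or impairs the development of T and B cells, while XLF and PAXX can stand in for one another in part. In GENCODE on GRCm38 Xrcc6 lies at chr15:81987835-82040085, Xrcc5 at chr1:72307421-72394952, Prkdc at chr16:15637866-15842235, Dclre1c at chr2:3424131-3464130, Poll at chr19:45552275-45560531, Polm at chr11:5827860-5838016, Lig4 at chr8:9969049-9977686, Xrcc4 at chr13:89774027-90089608, Nhej1 at chr1:74967139-75125200 and Paxx at chr2:25455141-25461094.

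Libraries held between 14531762 and 63109504 estimated counts. DN2 Arpp21-/- replicate 2 and DN3 Arpp21-/- replicate 3 stood apart from the other libraries: the Pearson correlation of DN2 Arpp21-/- replicate 2 with the other DN2 libraries was at most 0.846, while every other DN2 library reached at least 0.974 with another one, and that of DN3 Arpp21-/- replicate 3 with the other DN3 libraries was at most 0.941, against at least 0.986. Both had less signal from long transcripts. Calls of the 10 genes are therefore given from the fit to all 11 libraries and from the fit to the 9 others. Arpp21 itself, summed over the whole gene, was at 125 to 183 CPM (counts scaled to a common library size) in DN2 WT, at 28.5 and 86.9 CPM in DN2 Arpp21-/-, at 312 to 386 CPM in DN3 WT and at 142 to 335 CPM in DN3 Arpp21-/- libraries. A whole-gene sum does not check the loss of an exon. The defining markers followed the labels in WT: Ptcra, the pre-T cell receptor α chain, was at 1.00 to 2.96 CPM in DN2 WT and at 365 to 436 CPM in DN3 WT, and Kit, which marks DN2, was at 446 to 512 CPM in DN2 WT and at 60.1 to 97.3 CPM in DN3 WT. In DN2 Arpp21-/- replicates 1 and 2 Kit was at 553 and 66.6 CPM and Ptcra at 2.52 and 11.7 CPM. In DN2 Arpp21-/- replicate 2 Kit was thus within the DN3 WT range, unlike in the other DN2 libraries, while Ptcra was far below the DN3 range. Cd44, also a DN2 marker, was at 55.6 CPM there, nearer to DN2 WT (66.2 to 109 CPM) than to DN3 WT (5.37 to 9.11 CPM). Il2ra, Gata3, Tcf7, Bcl11b and Il7r were below the ranges of both WT groups in this library. The DN2 marker Mpzl2 was at 40.3 CPM there, above DN2 WT (0.843 to 31.5 CPM) and below DN3 WT (50.8 to 88.2 CPM). The DN3 markers Cd3e, Notch3, Rag1 and Rag2 were at 45.8, 9.97, 1.36 and 45.3 CPM, all below the DN3 WT range. The DN3 Arpp21-/- libraries had 24.5 to 73.6 CPM of Kit and 432 to 605 CPM of Ptcra.

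The 10 genes differed widely in level. Levels between genes are compared as TPM, which corrects counts for transcript length and gives every library the same total. In DN3 WT, Xrcc6 was the most abundant at 453 ± 39.8 TPM (SD, n = 3), followed by Xrcc5 at 56.7 ± 3.10 TPM. Paxx at 34.7 ± 5.25 TPM and Lig4 at 31.3 ± 0.756 TPM came next and overlapped between libraries. Xrcc4 stood at 16.9 ± 1.38 TPM. Nhej1 at 11.7 ± 1.98 TPM, Prkdc at 9.17 ± 2.54 TPM and Dclre1c at 9.17 ± 2.89 TPM could not be ordered, since each overlapped its neighbour. Poll at 3.34 ± 0.601 TPM and Polm at 2.19 ± 0.366 TPM, the polymerases, were the lowest.

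In DN2 WT the order was Xrcc6 at 265 ± 56.3 TPM (SD, n = 3), Xrcc5 at 35.8 ± 10.2 TPM, Paxx at 23.9 ± 4.89 TPM, Nhej1 at 13.4 ± 1.79 TPM, Prkdc at 13.3 ± 5.29 TPM, Lig4 at 12.4 ± 1.08 TPM, Xrcc4 at 10.6 ± 4.66 TPM, Poll at 4.72 ± 1.89 TPM, Dclre1c at 3.37 ± 0.291 TPM and Polm at 0.547 ± 0.635 TPM. The libraries of Nhej1, Prkdc, Lig4 and Xrcc4 overlapped from each to the next in this order, as did those of Poll and Dclre1c and those of Xrcc5 and Paxx. Xrcc6 and Xrcc5 thus had the highest means in both stages, and Polm was last in both. The ratio of Xrcc6 to Xrcc5, whose proteins form an obligate dimer, was 7.57 ± 1.57 (SD, n = 3) in DN2 WT and 7.99 ± 0.473 in DN3 WT on the TPM scale. The ratio of Lig4 to Xrcc4 was 1.30 ± 0.441 in DN2 WT and 1.86 ± 0.203 in DN3 WT. In DN3 Arpp21-/- 8 of the 10 genes held the same place in the order of mean TPM as in DN3 WT, and the pair that changed place was Prkdc and Dclre1c, whose libraries overlapped. Without DN3 Arpp21-/- replicate 3 the number was again 8, and the pair was Nhej1 and Dclre1c. The level of Nhej1 leaves out a 65-base transcript, Nhej1-202, to which 3.8 to 12.0% of the gene's counts were assigned; with it, the DN3 WT mean becomes 162 TPM.

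From DN2 to DN3 in WT thymocytes the Ku genes, Lig4, Dclre1c and Polm were higher in every DN3 library than in every DN2 library, and no member was lower in every DN3 library. These 5 of 10 stand beside 17.5% of all genes tested that were higher in DN3 WT without overlap, and the 0 of 10 beside 17.3% that were lower. In the fit to 11 libraries 0 of the 10 passed the test by edgeR (quasi-likelihood test, two-sided, Benjamini-Hochberg adjustment over 13749 genes, called at an adjusted p under 0.05), with 0 at an unadjusted p under 0.05, and 4.12% of all genes were called. DESeq2 also called 0, with 1 at an unadjusted p under 0.05, beside 8.66% of all genes called. In the fit to 9 libraries 4 of the 10 were called, all higher in DN3 (Lig4, Xrcc6, Dclre1c and Xrcc5), beside 6.98% of all genes called higher. The median log2 fold change of the 10 was 0.59 with 11 libraries and 0.61 with 9, where that of all genes tested was 0.01 and 0.03. Both fits take this change from the same WT libraries, since only Arpp21-/- libraries were left out. Nearly the same changes were therefore fixed in advance. The 2 fits differed in their spread. The common dispersion, the squared coefficient of variation between replicates beyond counting error, was 0.281 with 11 libraries and 0.104 with 9.

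Lig4, the ligase that seals the break, showed the tightest step. It was at 30.2, 33.96 and 34.8 CPM in DN2 WT replicates 1, 2 and 3 and at 73.3, 74.0 and 75.0 CPM in DN3 WT replicates 1, 2 and 3. The lowest DN3 library was 2.10 times the highest DN2 library, and the coefficient of variation was 1.2% within DN3 WT. With 9 libraries the log2 fold change was 1.18 (SE 0.137, 95% interval 0.87 to 1.49, adjusted p = 0.000548 by edgeR), and with 11 it was 1.17 (SE 1.10, adjusted p = 0.858). Its wide interval with 11 libraries goes with the 2 DN2 Arpp21-/- libraries, of which replicate 2 had 4 Lig4 counts: without replicate 2 the adjusted p was 0.0136, and without replicate 1 it was 0.0146.

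Xrcc6, or Ku70, was at 380, 290 and 322 CPM in DN2 WT and at 551, 486 and 504 CPM in DN3 WT. The groups did not overlap, and the mean was 1.55-fold higher in DN3. Its log2 fold change was 0.65 (SE 0.110, adjusted p = 0.00420 by edgeR) with 9 libraries and 0.64 (SE 0.326, adjusted p = 0.471) with 11. Xrcc5, or Ku80, was at 77.3, 63.3 and 48.3 CPM in DN2 WT and at 93.5, 90.4 and 93.5 CPM in DN3 WT. Its spread was wider in DN2, and the lowest DN3 library was 1.17 times the highest DN2 library. For Xrcc5 the log2 fold change was 0.57 (SE 0.159, adjusted p = 0.0417) with 9 libraries and 0.55 (SE 0.390, adjusted p = 0.705) with 11. Xrcc6 overlaps Desi1 on the other strand by 41340 bases of the gene spans, introns included. The library kit does not mark strand, so reads from exon bases that the 2 genes share could not be told apart. How many exon bases they share was not measured. The fold changes of both Ku genes were nearly the same in the 2 fits, which share the WT libraries. Both genes passed the test with 9 libraries only.

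Dclre1c, the hairpin-opening nuclease Artemis, was at 6.93, 6.82 and 5.10 CPM in DN2 WT and at 16.1, 14.8 and 9.20 CPM in DN3 WT. All DN3 libraries were above all DN2 libraries, with replicate 3 the lowest in both stages. Its log2 fold change was 1.10 (SE 0.276, adjusted p = 0.0279 by edgeR) with 9 libraries and 1.09 (SE 0.758, adjusted p = 0.699) with 11. Dclre1c overlaps Suv39h2 on the other strand by 8316 bases of the gene spans, with the same limit. Xrcc4 does so with Gm4117 by 113140 bases and with Tmem167 by 486 bases. Polm, a polymerase close to the T cell enzyme terminal transferase, was at 0.305, 2.77 and 0.383 CPM in DN2 WT and at 3.33, 4.56 and 3.36 CPM in DN3 WT. These values rest on 7, 61 and 10 counts in DN2 and on 73, 107 and 76 counts in DN3, and DN2 WT replicate 2 lay close to the DN3 range. Polm was not called with 9 libraries (log2 fold change 1.72, SE 0.771, adjusted p = 0.180) or with 11 (1.70, SE 0.830, adjusted p = 0.433). Without DN2 WT replicate 2 it was the only member called, beside 1.05% of all genes called higher (log2 fold change 3.42, SE 0.677, adjusted p = 0.0358).

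The other 5 genes overlapped between the stages in WT. Xrcc4 was at 7.05 to 14.5 CPM in DN2 WT and at 14.0 to 17.5 CPM in DN3 WT, with DN2 WT replicate 1 alone inside the DN3 range (log2 fold change 0.72, SE 0.285, adjusted p = 0.130 by edgeR with 9 libraries). Paxx was at 10.8 to 17.0 CPM in DN2 WT and at 14.6 to 17.0 CPM in DN3 WT, with a log2 fold change of 0.30 (SE 0.224). Prkdc was at 39.3 to 87.8 CPM in DN2 WT and at 39.8 to 60.4 CPM in DN3 WT, with a log2 fold change of -0.31 (SE 0.270). Nhej1 ranged from 8.06 to 11.4 CPM in DN2 WT and from 6.85 to 9.06 CPM in DN3 WT, with a log2 fold change of -0.27 (SE 0.244). Poll was at 4.25 to 9.41 CPM in DN2 WT and at 4.14 to 5.75 CPM in DN3 WT, with a log2 fold change of -0.59 (SE 0.335). These fold changes come from the fit to 9 libraries. For Paxx, Prkdc, Nhej1 and Poll the adjusted p with 9 libraries lay between 0.286 and 0.530, and the intervals still allow changes in either direction. With 11 libraries the SE was 0.373 for Xrcc4, 0.338 for Paxx, 0.602 for Prkdc, 0.496 for Nhej1 and 0.421 for Poll. The adjusted p by edgeR then ran from 0.496 for Xrcc4 to 0.997 for Prkdc.

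**Figure D1:**
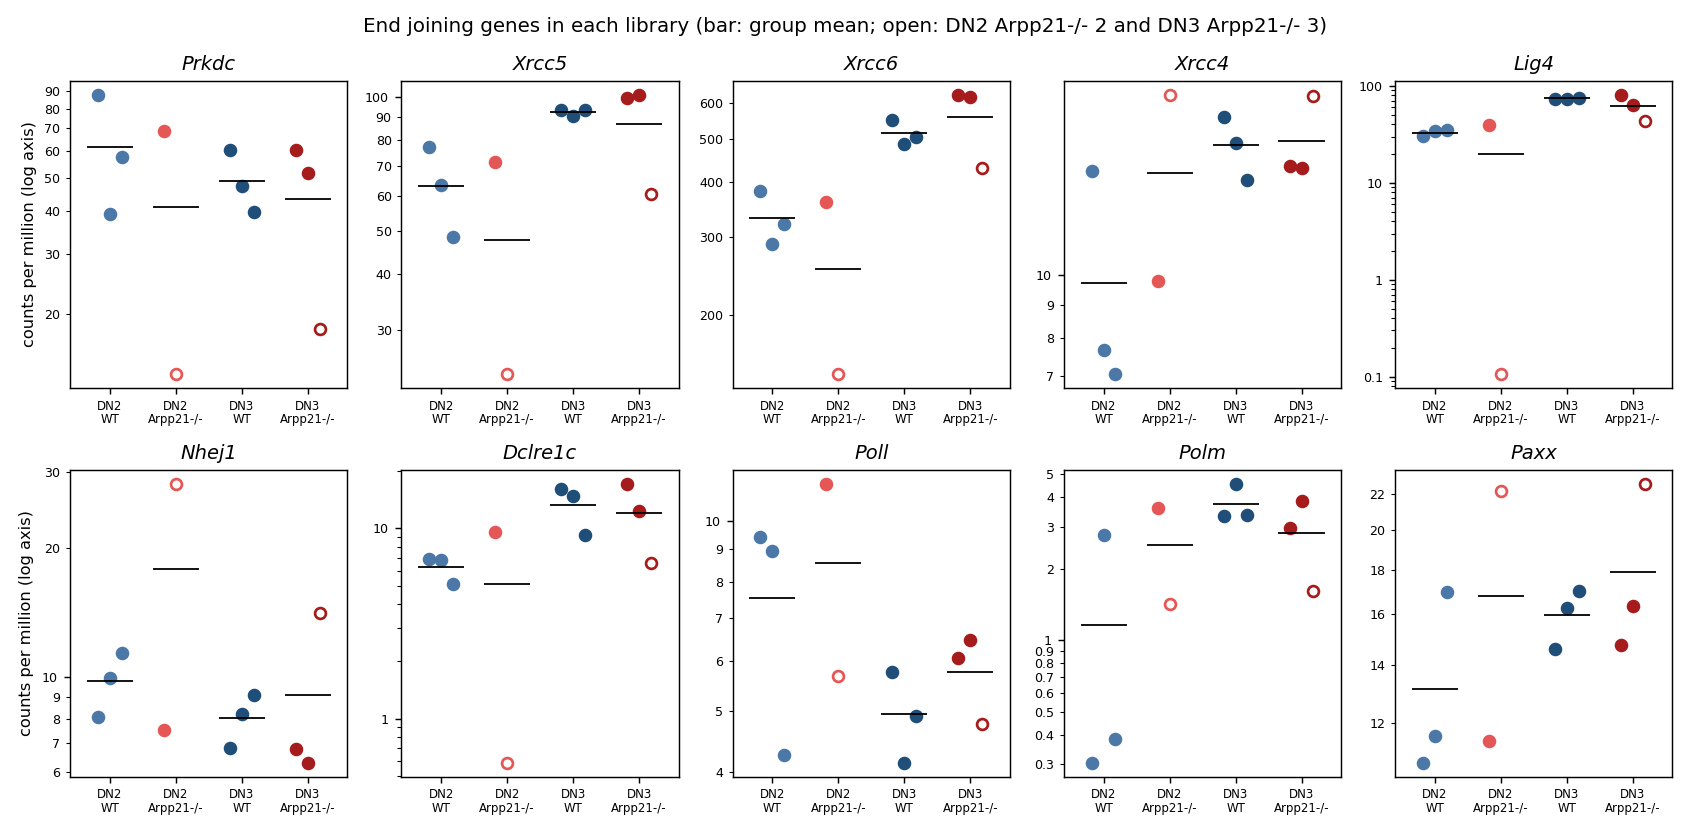
CPM of each of the 10 end joining genes in each of the 11 libraries, on a log axis that differs between panels. Points are libraries, bars are group means, and open points are DN2 Arpp21-/- replicate 2 and DN3 Arpp21-/- replicate 3. The filled DN3 points lie above the DN2 WT points for Xrcc5, Xrcc6, Lig4, Dclre1c and Polm, and the open points lie low for Prkdc, Xrcc5, Xrcc6, Lig4 and Dclre1c and high for Xrcc4, Nhej1 and Paxx.

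**Figure D2:**
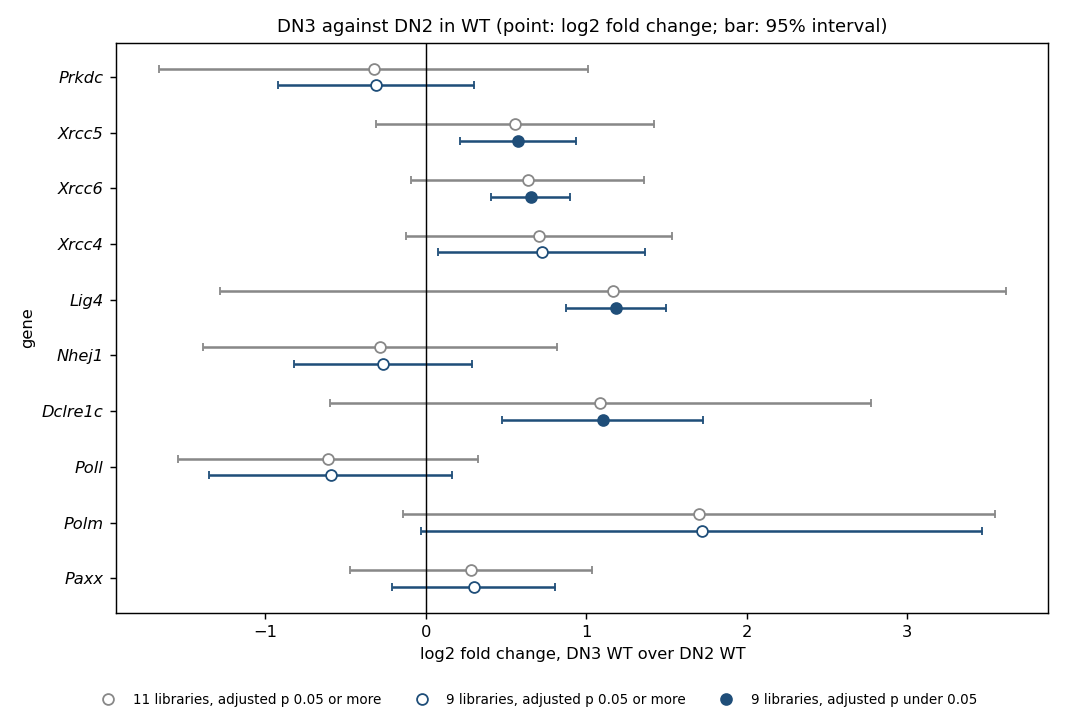
The log2 fold change of DN3 WT over DN2 WT for each gene with its 95% interval, in grey from the fit to 11 libraries and in blue from the fit to 9 libraries. Filled points have an adjusted p under 0.05. Both fits use the same WT libraries, and their points nearly coincide. The intervals of Xrcc5, Xrcc6, Lig4 and Dclre1c leave 0 with 9 libraries only, with Lig4 from 0.87 to 1.49. That of Xrcc4 does so without passing the adjusted threshold.

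Limma voom with sample quality weights keeps all 11 libraries and gives less weight to those farther from the mean of their group. The weights were 0.0944 and 0.109 for DN2 Arpp21-/- replicates 1 and 2, 0.242 for DN3 Arpp21-/- replicate 3 and 1.04 to 5.18 for the others. In a group of 2 both libraries lie equally far from the mean, so a low weight does not tell which departs. The correlation of DN2 Arpp21-/- replicate 1 with another DN2 library reached 0.977. This fit called Lig4, Xrcc5, Xrcc6 and Polm higher in DN3 WT, beside 7.53% of all genes called higher. The fit to the 6 WT libraries alone called Lig4, Xrcc6 and Dclre1c, beside 6.32%. With the fit to 9 libraries counted, Lig4 and Xrcc6 were thus called by each of these 3 fits, and Xrcc5, Dclre1c and Polm by some. The 3 fits take this change from the same 6 WT libraries, so a repeated call is not separate support. In bulk RNA, more RNA per cell and more cells of a type with higher levels cannot be told apart.

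The promoters of the 4 genes called with 9 libraries are shown because these genes rose from DN2 to DN3 in that fit, with capitals marking the GC box GGGCGG and the ETS core CCGGAA on either strand. They come from RefSeq on GRCm38.p6 and run from 250 bases before to 50 bases after the start of the gene, 5′ to 3′ on the gene's strand. Lig4 has 2 annotated starts. Of Xrcc6, the RefSeq start lies inside the longer GENCODE gene.
Lig4, chr8:9977631-9977930, minus strand: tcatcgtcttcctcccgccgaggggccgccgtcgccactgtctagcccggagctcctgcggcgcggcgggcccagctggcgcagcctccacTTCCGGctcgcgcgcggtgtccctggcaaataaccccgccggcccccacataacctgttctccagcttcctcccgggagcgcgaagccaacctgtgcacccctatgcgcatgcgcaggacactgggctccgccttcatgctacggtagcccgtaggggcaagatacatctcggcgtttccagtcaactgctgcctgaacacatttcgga
Lig4, chr8:9976262-9976561, minus strand: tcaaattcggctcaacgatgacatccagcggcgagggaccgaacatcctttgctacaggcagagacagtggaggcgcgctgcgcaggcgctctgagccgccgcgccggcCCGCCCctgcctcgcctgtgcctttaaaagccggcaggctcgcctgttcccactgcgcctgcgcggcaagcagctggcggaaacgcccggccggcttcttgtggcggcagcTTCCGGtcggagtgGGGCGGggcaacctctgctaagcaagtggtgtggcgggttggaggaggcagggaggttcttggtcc
Xrcc6, chr15:82016119-82016418, plus strand: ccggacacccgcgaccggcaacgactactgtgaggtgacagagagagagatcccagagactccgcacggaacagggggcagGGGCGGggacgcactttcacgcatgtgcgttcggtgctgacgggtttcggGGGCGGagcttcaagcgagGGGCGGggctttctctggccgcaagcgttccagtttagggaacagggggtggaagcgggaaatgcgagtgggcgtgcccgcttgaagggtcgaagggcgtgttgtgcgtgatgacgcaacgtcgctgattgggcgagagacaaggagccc
Xrcc5, chr1:72307171-72307470, plus strand: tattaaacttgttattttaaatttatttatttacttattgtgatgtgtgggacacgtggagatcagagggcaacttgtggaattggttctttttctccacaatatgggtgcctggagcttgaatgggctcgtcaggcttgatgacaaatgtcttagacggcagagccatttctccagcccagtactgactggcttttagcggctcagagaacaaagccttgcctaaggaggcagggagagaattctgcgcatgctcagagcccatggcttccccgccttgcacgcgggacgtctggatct
Dclre1c, chr2:3423881-3424180, plus strand: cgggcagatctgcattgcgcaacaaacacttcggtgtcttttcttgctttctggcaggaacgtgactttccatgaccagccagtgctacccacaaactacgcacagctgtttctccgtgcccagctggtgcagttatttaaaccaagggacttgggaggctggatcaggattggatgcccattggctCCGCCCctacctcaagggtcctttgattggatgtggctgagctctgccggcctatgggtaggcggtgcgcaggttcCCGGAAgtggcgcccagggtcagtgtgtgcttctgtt

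The windows of these genes did not share 1 make-up. GC content was 66.3 and 67.3% in the Lig4 windows, 64.3% in that of Xrcc6, 56.3% in that of Dclre1c and 48.0% in that of Xrcc5, where the median of all 32851 promoters in the table was 52.7%. The GC box occurred 3 times in Xrcc6, once in Dclre1c, 2 times in the downstream Lig4 window and in neither the upstream Lig4 window nor Xrcc5, and 35.7% of all promoters hold it. The ETS core occurred once in each Lig4 window and once in Dclre1c, and in neither Ku gene, and 14.9% of all promoters hold it. The E box CANNTG, which matches itself on both strands and is the motif of E proteins, was present in all 5 windows, as in 72.3% of all promoters, and the CCAAT box occurred 3 times in Dclre1c, once in Xrcc5 and once in Xrcc6, with a share of 37.4%. The motifs can overlap one another. Among the members whose libraries overlapped between stages, the Xrcc4 window held 3 GC boxes and 2 ETS cores and the Paxx window 5 and 1, so these letters did not separate the groups. Promoters were matched by symbol for 8 of the 10 genes; Prkdc and Poll had no entry.

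None of the 10 genes passed the test between genotypes in DN3. In DN3 Arpp21-/- against WT 0 of 10 were called by edgeR with 11 libraries, with 0 at an unadjusted p under 0.05, and 0 by DESeq2 (0 unadjusted, 0.116% of all genes called) and by limma voom (1 unadjusted, 0.858% called); by edgeR 0.00727% of all genes, 1 of 13749, were called. With 9 libraries 0 of 10 were called beside 0.0344% of all genes, with 1 member at an unadjusted p under 0.05. No member's DN3 Arpp21-/- libraries lay wholly above or below the WT libraries, where 10.5% of all genes did so in either direction. Without DN3 Arpp21-/- replicate 3, Xrcc5, Xrcc6 and Poll lay wholly above WT, beside 11.7% of all genes, and Nhej1 lay wholly below, beside 10.9%. The median log2 fold change of the 10 was -0.03 with 11 libraries and 0.03 with 9, beside -0.01 and 0.00 for all genes tested.

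Lig4 was at 73.3, 74.0 and 75.0 CPM in DN3 WT and at 80.5, 62.7 and 43.0 CPM in DN3 Arpp21-/- replicates 1, 2 and 3. The Arpp21-/- libraries lay on both sides of WT. For Lig4 the log2 fold change was -0.05 (SE 0.151, 95% interval -0.40 to 0.29, adjusted p = 1 by edgeR) with 9 libraries, which is the narrowest interval among the members after Xrcc6, and -0.25 (SE 1.09) with 11. Xrcc6 was at 627, 621 and 430 CPM in DN3 Arpp21-/- replicates 1, 2 and 3, of which replicates 1 and 2 lay above and replicate 3 below the WT range of 486 to 551 CPM. Its log2 fold change was 0.28 (SE 0.121, unadjusted p = 0.0481 and adjusted p = 1 by edgeR) with 9 libraries and 0.12 (SE 0.325) with 11. Xrcc5 was at 99.4, 100.9 and 60.6 CPM in DN3 Arpp21-/-, again with replicate 3 below the WT range, and its log2 fold change was 0.11 (SE 0.177) with 9 libraries and -0.09 (SE 0.389) with 11.

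Dclre1c was at 17.2, 12.3 and 6.62 CPM in DN3 Arpp21-/- replicates 1, 2 and 3, which spread around the WT range of 9.20 to 16.1 CPM. Its log2 fold change was 0.14 (SE 0.302) with 9 libraries and -0.15 (SE 0.748) with 11. Prkdc was at 60.7, 51.7 and 18.1 CPM, of which only replicate 3 was outside the WT range. Its log2 fold change was 0.19 (SE 0.301) with 9 libraries and -0.18 (SE 0.602) with 11. Nhej1 was at 6.79, 6.32 and 14.1 CPM, with replicate 3 above and the others just below WT, and its log2 fold change was -0.30 (SE 0.276) with 9 libraries and 0.17 (SE 0.497) with 11. For Xrcc4 the log2 fold change was -0.11 (SE 0.317) with 9 libraries and 0.02 (SE 0.371) with 11, and for Paxx it was -0.04 (SE 0.250) and 0.16 (SE 0.338). The sign of 6 of the 10 genes (Prkdc, Xrcc5, Xrcc4, Nhej1, Dclre1c and Paxx) thus turned with DN3 Arpp21-/- replicate 3 in or out. Poll (0.34, SE 0.373 with 9 libraries and 0.23, SE 0.421 with 11) and Polm (-0.14, SE 0.830 and -0.41, SE 0.805), the low polymerases, kept their sign. With 9 libraries the 95% intervals left room for a change of up to 0.87 on the log2 scale for Prkdc, 0.93 downward for Nhej1 and 2.02 downward for Polm.

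**Figure D3:**
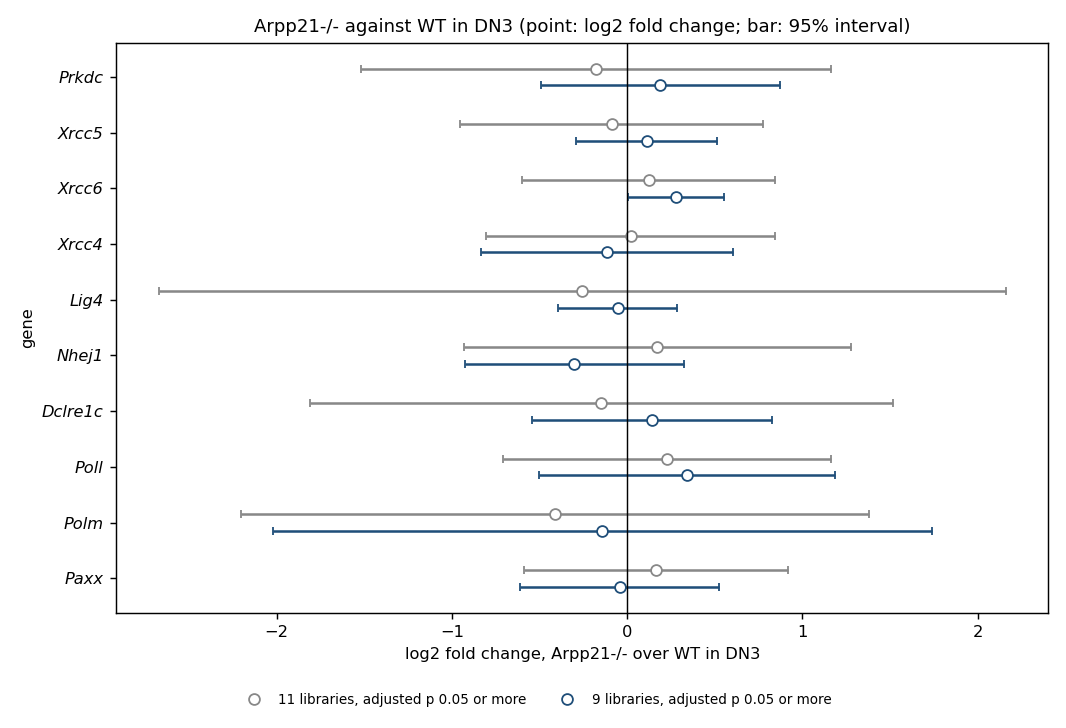
The log2 fold change of Arpp21-/- over WT in DN3 for each gene with its 95% interval, in grey from the fit to 11 libraries and in blue from the fit to 9 libraries. Every point is open, since no gene had an adjusted p under 0.05, and 6 of the 10 points lie on opposite sides of 0 in the 2 fits.

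Rag1, whose protein makes the breaks that these genes close, was at 904, 867 and 973 CPM in DN3 WT and at 413, 335 and 236 CPM in DN3 Arpp21-/-, without overlap (log2 fold change -1.29, SE 0.270, adjusted p = 0.256 by edgeR with 9 libraries, and -1.48, SE 0.446, with 11). Dntt, the terminal transferase that adds bases at the joints, was at 2482 to 2539 CPM in DN3 WT and at 2708 to 3291 CPM in DN3 Arpp21-/-, also without overlap (log2 fold change 0.23, SE 0.0983, adjusted p = 1 with 9 libraries, and 0.29, SE 0.205, with 11). The study reports lower Rag1 mRNA in Arpp21-/- DN3 cells by RT-qPCR, and less Rag1 protein in thymocyte extracts. Its own analysis of RNA sequencing also placed Rag1 among the most lowered Arpp21-bound mRNAs in Arpp21-/- DN3 cells. The edgeR fits here thus left uncalled a change that the study found by sequencing and by other assays. Whether DESeq2 or limma voom called Rag1 in DN3 is not given here. The 0 of 10 members called between genotypes in DN3 therefore does not show that their levels were unchanged.

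In DN2 the 2 Arpp21-/- libraries differed widely from each other in most members. Lig4 was at 39.2 CPM in Arpp21-/- replicate 1 and at 0.107 CPM, 4 of 63109504 counts, in replicate 2, against 30.2 to 34.8 CPM in DN2 WT. Dclre1c was at 9.60 and 0.588 CPM, Prkdc at 68.9 and 13.3 CPM, Xrcc5 at 71.3 and 23.9 CPM and Xrcc6 at 361 and 148 CPM in replicates 1 and 2. Nhej1 ran the other way, at 7.51 and 28.2 CPM, as did Xrcc4 at 9.79 and 18.9 CPM and Paxx at 11.4 and 22.2 CPM. Poll was at 11.4 and 5.67 CPM and Polm at 3.62 and 1.42 CPM. No member's 2 Arpp21-/- libraries lay on the same side of all 3 WT libraries, where 15.8% of all genes did so in either direction.

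By edgeR with 11 libraries 0 of 10 were called between genotypes in DN2, with 0 at an unadjusted p under 0.05, beside 0% of all genes, and DESeq2 (0 unadjusted, 0.276% of all genes called) and limma voom (1 unadjusted, 0% called) called 0. With 9 libraries, where DN2 Arpp21-/- is replicate 1 alone and is assumed to vary like the other groups, edgeR called 0 of 10, with 0 at an unadjusted p under 0.05, and 0% of all genes. Without replicate 1 instead, 6 of 10 were called beside 46.2% of all genes: Lig4, Dclre1c, Prkdc, Xrcc5 and Xrcc6 lower in Arpp21-/- and Nhej1 higher. The call thus depends on which of the 2 libraries stands for DN2 Arpp21-/-. For the interaction of stage and genotype 0 of 10 were called by edgeR with 11 libraries, with 0 at an unadjusted p under 0.05, beside 0% of all genes, and 0 with 9 libraries (0 unadjusted, 0% of all genes), by DESeq2 (0 unadjusted, 0.0727% of all genes) and by limma voom (1 unadjusted, 0% of all genes).

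The step from DN2 to DN3 within Arpp21-/- was called for 0 of 10 genes with 11 libraries, with 1 at an unadjusted p under 0.05, beside 4.34% of all genes. With 9 libraries Xrcc6 (log2 fold change 0.78, SE 0.169, adjusted p = 0.0271 by edgeR) and Lig4 (0.86, SE 0.210, adjusted p = 0.0454) were called higher in DN3, beside 2.16% of all genes called higher, with the single DN2 library again assumed to vary like the other groups. With 11 libraries the log2 fold changes were 1.14 (SE 0.377, adjusted p = 0.133) for Xrcc6, which DESeq2 called beside 4.76% of all genes called higher, and 1.66 (SE 1.29, adjusted p = 0.486) for Lig4. The DN3 Arpp21-/- libraries of Xrcc6 and Lig4 all lay above both DN2 Arpp21-/- libraries, and those of the other 8 genes overlapped; 13.4% of all genes were higher in DN3 without overlap.

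The values of the 10 genes in DN2 Arpp21-/- replicate 2 and DN3 Arpp21-/- replicate 3 moved in part with the length of their transcripts. Across all genes tested, the median log2 difference of DN2 Arpp21-/- replicate 2 from the other DN2 libraries was 1.44 for genes under 1000 bases and -1.68 for genes of 5000 bases or more, and that of DN3 Arpp21-/- replicate 3 from the other DN3 libraries was 0.66 and -0.95. Nhej1 and Paxx, with mean transcript lengths of 970 and 907 bases, were higher by 1.58 and 0.80 in the DN2 library and by 0.89 and 0.51 in the DN3 library. Prkdc, at 10447 bases, differed by -2.15 and -1.48, where the running trend of all genes at that length was -1.72 and -1.23. The short genes were thus higher and the longest gene lower in both libraries.

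Lig4 lay farthest from the trend in the DN2 library. At a mean length of 3836 bases it differed by -5.84 in DN2 Arpp21-/- replicate 2, where the running trend of all genes at that length was -1.06, and by -0.75 in DN3 Arpp21-/- replicate 3, where the trend was -0.52. Dclre1c, at 3438 bases, differed by -2.77 beside a trend of -0.84 in the DN2 library and by -0.99 beside -0.40 in the DN3 library. Xrcc6 and Xrcc5 were also below the trend in both libraries, at -1.18 beside 0.29 and -1.41 beside -0.17 in the DN2 library. What sets these libraries apart was not tested.

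**Figure D4:**
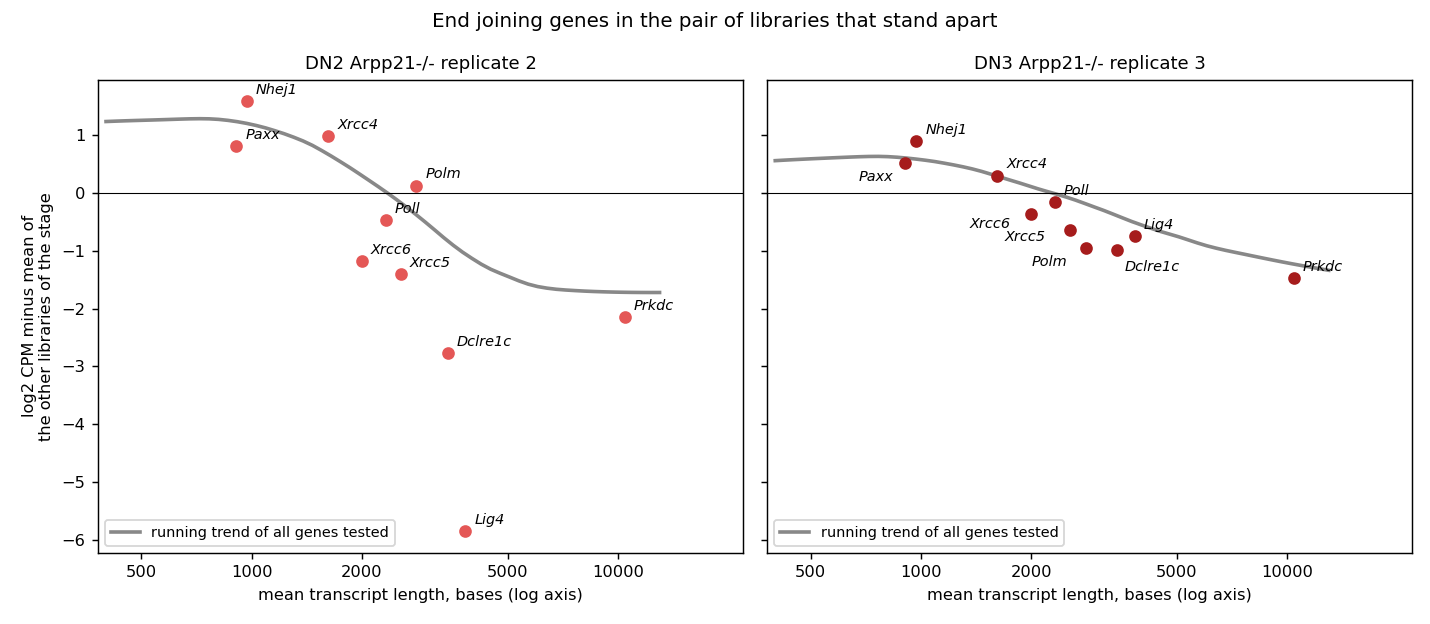
Difference in log2 CPM (with 0.5 added to the CPM) between a library that stands apart and the mean of the other libraries of its stage, against the mean transcript length of the gene in bases on a log axis, for DN2 Arpp21-/- replicate 2 and DN3 Arpp21-/- replicate 3. Points are the 10 end joining genes and the grey line is the running trend of all genes tested; short Nhej1 lies at 1.58 and long Prkdc at -2.15 in the DN2 library, and Lig4 at -5.84 lies far below the trend.

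Counts per transcript place the signal within each gene. Lig4 has 2 coding transcripts with the same coding sequence of 2733 bases, Lig4-201 with a 3′ untranslated region of 1994 bases and Lig4-202 with 1 of 166 bases. Lig4-202 took 54.1 ± 10.5% (SD, n = 3) of the gene's counts in DN2 WT, 61.6 ± 5.1% in DN3 WT and 67.1 ± 3.6% in DN3 Arpp21-/-. The DN3 WT libraries overlapped those of both other groups, and the DN3 Arpp21-/- libraries (63.7 to 70.8%) lay above those of DN2 WT (42.3 to 62.4%). In DN2 Arpp21-/- replicate 2 the share rests on 4 counts. Prkdc-201, the coding transcript of 12647 bases, took 69.1 ± 11.4% in DN2 WT and 82.4 ± 5.7% in DN3 WT, and the rest went to Prkdc-202, a transcript of 3063 bases annotated with a retained intron. In the libraries that stand apart the share of Prkdc-201 was 54.2 and 59.3%, against 81.5 to 83.7% in the other Arpp21-/- libraries and 56.2 to 88.9% in the WT libraries, of which DN2 WT replicate 2 was the lowest. For Dclre1c the main coding transcript, Dclre1c-203, took 54.6 ± 6.0% in DN2 WT and 55.8 ± 10.9% in DN3 WT, and Dclre1c-201, with a 3′ untranslated region of 5176 bases, took 18.7 ± 14.7% and 20.0 ± 6.9%.

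Much of the Paxx signal was not on its main coding transcript: Paxx-201 took 34.4 to 59.0% in DN2 WT, 39.1 ± 8.3% (SD, n = 3) in DN3 WT and 34.4 ± 10.1% in DN3 Arpp21-/-, and much of the rest went to transcripts without a coding sequence such as Paxx-204. All groups of 3 overlapped. Paxx overlaps Clic3 on the other strand by 1939 bases of the gene spans. Xrcc6-201 took 82.9 to 84.4% in DN3 WT, and the single annotated transcripts of Xrcc5 and Poll took all counts. For Polm the share of a single transcript ran from 0 to 100% between libraries, so its transcripts could not be told apart at this depth. Kallisto shares out read pairs that fit several transcripts, so these shares are estimates.

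**Figure D5:**
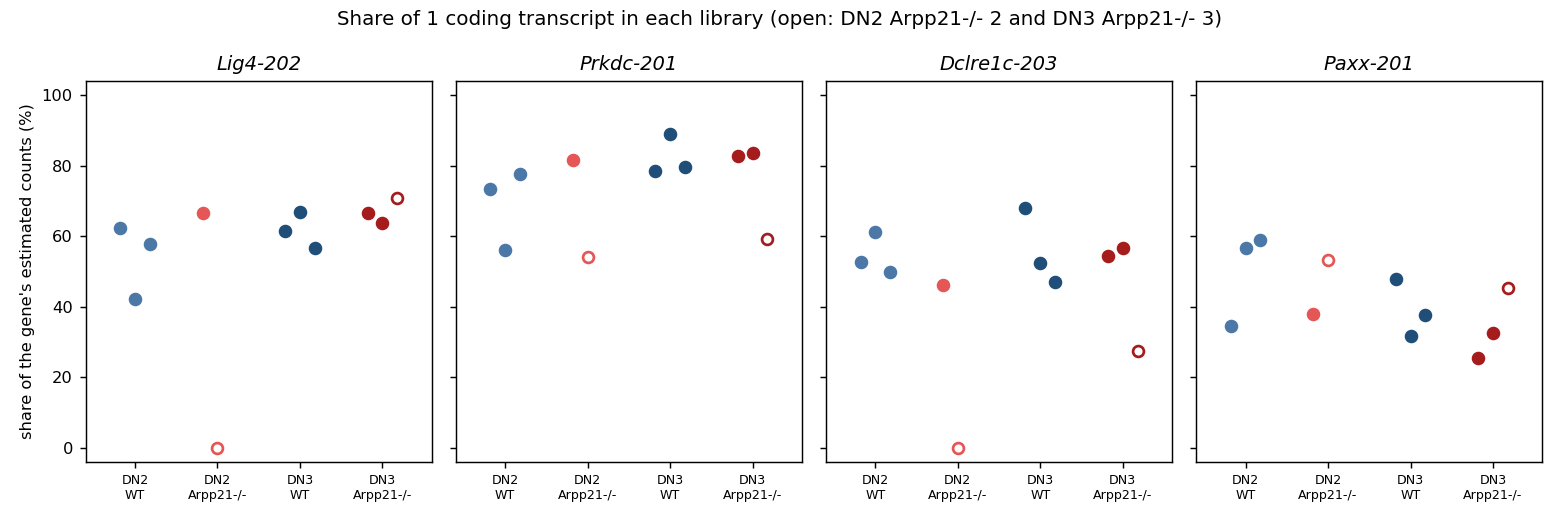
Share of the gene's estimated counts, in percent, that was assigned to 1 coding transcript in each of the 11 libraries. Open points are DN2 Arpp21-/- replicate 2 and DN3 Arpp21-/- replicate 3. The DN2 WT and DN3 WT points overlap in all 4 panels except Prkdc-201, and the open points fall to 54.2 and 59.3% for Prkdc-201 and to 0 and 27.5% for Dclre1c-203.

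ARPP21 binds uridine-rich RNA, so the 3′ untranslated region of the main coding transcript of each gene was searched for runs of U. Its length was between 166 bases for Lig4-202 and 1168 bases for Polm-201. The longest run of U was 2 to 4 bases in 8 of them, 6 bases in Xrcc4-201 and 7 bases in Polm-201. The median over 42836 annotated coding transcripts was 5 bases, and 33.3% of them have a run of at least 7. These transcripts were not matched to the members for the length of the region, and a longer region leaves more room for a run. The share of U was 20.8 to 37.8%, with Xrcc4-201 the highest, beside a median of 28.9%. These features come from the GENCODE annotation and are given as a description, and Lig4-201, with a longer region, took 37.6 to 57.7% of Lig4 counts in DN2 WT and was not searched. Other transcripts with longer regions were not searched either, such as Dclre1c-201, Dclre1c-202 and Dclre1c-204 with 5176, 2157 and 2149 bases. Binding of ARPP21 to these genes was not tested here. The study mapped the RNA bound by ARPP21 in thymocytes by crosslinking and immunoprecipitation, and those data were not used here.

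The genes that act around end joining were counted from lists, to be read beside the share of all genes called from DN2 to DN3 in WT with 9 libraries, which was 6.98% higher and 8.38% lower. Of the 7 end processing partners, 0 were called from DN2 to DN3 in WT with 11 libraries, and with 9 libraries Dntt (log2 fold change 0.59, SE 0.0886, adjusted p = 0.00239 by edgeR) and Aptx, which repairs aborted ligation ends (0.73, SE 0.155, adjusted p = 0.0136), were called higher. Of 14 genes of break signalling and the 53BP1 pathway, which protects ends from resection, 0 were called with 11 libraries and 2 were called lower with 9, the histone gene H2afx (log2 fold change -0.56) and the ubiquitin ligase gene Rnf168 (-0.88); Shld3 was not analysed here. Of 6 genes of alternative end joining, 0 were called with 11 libraries and Fen1, a flap nuclease of DNA replication (-0.74), was called lower with 9. Of 15 genes of homologous recombination, the repair route of dividing cells, 0 were called with 11 libraries and 7 were called lower with 9, of which Rad51c (-1.41), Rad54l (-0.94) and Rad51b (-0.88) had the largest changes. Of the 4 genes of the RAG recombinase and its cofactors, Rag1 and Rag2 were called higher with both fits, and Hmgb1 and Hmgb2 were called lower with 9 libraries only. The median log2 fold change with 9 libraries was -0.66 for homologous recombination, -0.26 for break signalling, -0.19 for alternative end joining and -0.03 for the end processing partners, beside 0.61 for the 10 end joining genes.

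Within Arpp21-/-, the counts called from DN2 to DN3 with 9 libraries (2.16% of all genes higher and 4.02% lower) were Dntt higher, Fen1 lower, Rad54l and Xrcc2 lower, Rag1 and Rag2 higher and none of break signalling; with 11 libraries only Rad54l, Rag1 and Rag2 were called. Between genotypes, in DN3 and in DN2, and for the interaction, none of the genes in these 5 lists was called by edgeR with 11 or with 9 libraries.

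Markers of other cells moved between the stages too, and their part in the changes above was not tested. The summed level of 7 myeloid markers was 114 to 159 CPM in DN2 WT, 134 and 357 CPM in DN2 Arpp21-/-, 29.9 to 36.8 CPM in DN3 WT and 34.7 to 47.6 CPM in DN3 Arpp21-/-, with 5 of 7 called lower in DN3 with 9 libraries (2 with 11); S100a8 and S100a9 were at 0.920 CPM or less in every library. The 10 genes that mark cells after β selection or in division summed to 2010 to 2580 CPM in DN2 WT and 1660 to 1950 CPM in DN3 WT, with Cdk1, Ccnb1 and Top2a called lower and Cd27 and Cd28 higher with 9 libraries (Cd28 alone with 11). The 6 markers of CD4+CD8+ (DP) thymocytes summed to 126 to 151 CPM in DN2 WT, 405 to 501 CPM in DN3 WT and 276 to 452 CPM in DN3 Arpp21-/-, most of it Themis, with 3 called higher with 9 libraries and 0 with 11; Cd4 was at up to 1.68 CPM in WT libraries and at 5.71, 3.27 and 1.05 CPM in DN3 Arpp21-/- replicates 1, 2 and 3. Of the 8 DN2 markers Kit and Cd44 were called lower and Tcf7 higher with 9 libraries (Cd44 alone with 11), and of the 6 DN3 markers all but Il2ra were called higher with both fits. Of 5 B cell markers Pax5 was at 0 in every library and Cd79b, called higher with 9 libraries (0 called with 11), made up nearly all of the sum of 38.6 to 66.1 CPM in WT. Of the 3 γδ T cell markers analysed, Trdc was called higher and Zbtb16 lower with 9 libraries and 0 with 11, with sums of 201 to 241 CPM in DN2 WT and 259 to 294 CPM in DN3 WT. Between genotypes, no gene of these lists was called in DN3 or in DN2 with either fit.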

How the data were processed

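DN2 and DN3 thymocytes were sorted to high purity and poly-A RNA was made into libraries with SmartSeq V4 and Nextera, which do not mark strand, and sequenced in pairs. The authors assigned trimmed reads with kallisto 0.46 to Ensembl transcripts of GRCm38. They deposited, for each of 11 libraries, estimated counts per transcript without normalization, TPM (counts over effective length, made to sum to the same total in each library) and effective lengths, which are another unit, in bases.

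Here transcripts were assigned to genes with GENCODE M21. Of 119414 transcripts 116640 matched, and those without a match, about 1% of counts (0.96 to 1.09% per library), were dropped. The estimated counts of a gene's transcripts were added up and rounded. Genes were kept with filterByExpr (minimum count 10, total 15), which left 13749, all 10 members among them. Groups were tested with edgeR 4.0.16 (TMM, glmQLFit and glmQLFTest, R 4.3.3) in 1 fit of 4 groups, two-sided, with Benjamini-Hochberg adjustment over all genes. SE is the absolute log2 fold change over the square root of F. Alternatives (another tool, size factors or low-count filter, offsets for transcript length, sample weights, a replicate block, fits without the 2 libraries or on 1 stage or genotype, each library left out) used edgeR, DESeq2 1.42.0 and limma 3.58.1, and the scripts were tested on simulated data. TPM levels sum transcripts of at least 200 bases, a choice made after seeing the data. Levels in CPM use TMM library sizes. The depth of 14531762 to 63109504 counts puts the floor of 3 counts at 0.0802 to 0.242 CPM, for counting error only.

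The members and gene lists were chosen with earlier results of these data known. All 10 members are named. At most 3 genes per other list and comparison are named, those with the largest change among the called, except that Rag1, Rag2, Hmgb1 and Hmgb2, Shld3 and the marker genes given by name were named after their values were seen. Tables and plots were made with Python 3.11.15, pandas 2.3.3, statsmodels 0.14.6 and matplotlib 3.10.9.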

Additional observations from a re-analysis of the deposited data

How the results depend on the processing

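From DN2 to DN3 in WT, fits with and without the 2 libraries that stand apart differed more in the spread than in the size of the changes. Both take that size from the same WT libraries, so its agreement was fixed in advance. Where Arpp21-/- libraries were compared, the size could change too. The log2 fold change of Lig4 from DN2 to DN3 in Arpp21-/- was 1.66 by edgeR with all libraries. It was 0.86 without the 2 libraries and 5.70 with voom. For Arpp21-/- against WT in DN2, the Lig4 values in that order were -0.75, 0.27 and -4.69. Members called from DN2 to DN3 in WT rose from 0 of 10 to 4 without the 2 libraries that stand apart, 4 with limma voom with sample quality weights, 3 in WT libraries alone and 0 to 1 with single libraries left out, where Lig4 was called without DN2 Arpp21-/- replicate 1 or 2 and Polm without DN2 WT replicate 2. In Arpp21-/- the number was 1 with DESeq2, 2 without the 2 libraries and 0 to 5 with single libraries left out. For Arpp21-/- against WT it was 0 in DN3 under every setting run, and with single libraries left out 0 to 6 in DN2 and 0 to 3 for the interaction, each highest without DN2 Arpp21-/- replicate 1. In DN3 the log2 fold change of Arpp21-/- against WT turned sign for 6 members, without the 2 libraries and with voom in that order: Prkdc 0.19 and 0.177, Xrcc5 0.111 and 0.103, Xrcc4 -0.115 and -0.072, Nhej1 -0.30 and -0.318, Dclre1c 0.141 and 0.092, Paxx -0.042 and -0.018. The offset for the trend over transcript length gave Prkdc 0.06, Xrcc4 -0.095, Nhej1 -0.138 and Paxx -0.091, and that for effective length gave Nhej1 -0.526. Single libraries left out gave -0.495 to 0.191 for Prkdc, -0.208 to 0.115 for Xrcc5, -0.112 to 0.098 for Xrcc4, -0.294 to 0.378 for Nhej1, -0.495 to 0.143 for Dclre1c and -0.038 to 0.286 for Paxx, with DN3 Arpp21-/- replicate 3 left out at the end that turned the sign. From DN2 to DN3 in WT Prkdc ran from -0.573 to 0.017, the latter without DN2 WT replicate 1, and Nhej1 was 0.047 with the offset for effective length. The mean TPM of Nhej1 in DN3 WT was 11.7, or 162.5 with all transcripts, an alternative added after seeing the data. The cause was not tested. Over all genes, calls from DN2 to DN3 in WT were 566, and 2230 without the 2 libraries, 2324 with voom, 2000 in WT alone, 1191 with DESeq2 and 243 to 1081 with single libraries left out; in Arpp21-/- they were 597, and 897, 140, 0, 1600 and 281 to 6754. In DN3 Arpp21-/- against WT the 1 call became 5, 118 with voom and 16 with DESeq2, in DN2 the 0 became 38 with DESeq2 and 6773 without DN2 Arpp21-/- replicate 1, and for the interaction 10 with DESeq2 and 3661 without that library. Whether same-numbered libraries pair was not settled. The correlation of their deviations from the group means between stages was 0.25, 0.075 and 0.151 in WT and 0.491 and -0.401 in Arpp21-/-. Libraries of different numbers were not correlated as a reference, so these values cannot decide it. With a replicate block 0 members were called in each comparison, and 444 genes from DN2 to DN3 in WT and 414 in Arpp21-/-, or 216 and 120 with genotype and number as the block. Depth limits Polm most, at 7 to 107 counts.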
